A study of Rattus norvegicus with 4 samples.

Results

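Genes that make, carry, sense and degrade retinoic acid were followed through 4 RNA sequencing libraries of the rat kidney line NRK-52E. The set holds 9 symbols, Stra6, Rdh10, Dhrs3, Aldh1a1, Aldh1a2, Aldh1a3, Crabp2, Rarb and Cyp26b1, and 8 of them were matched by exact symbol among 17768 genes of the deposited table. Stra6, the retinol uptake receptor, was not matched, so it has no counts here and only its promoter window is used below. The members were chosen by their pathway with the normalized counts of both groups already in view (the set is named for Dhrs3, which was already known to be lower in lv_Mettl3), so their values are a description and carry no test.

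NRK-52E is an epithelial cell line established from the kidney of a normal rat and labelled here as proximal tubular. The libraries titled lv_Mettl3 (n = 2) come from a stable subline made with a lentivirus that carries a murine Mettl3 cDNA in the vector pLVX-IRES-Puro, selected with puromycin at 0.5 mg/ml and kept at 0.25 mg/ml. The METTL3 protein is the methyltransferase that places N6-methyladenosine on RNA. The libraries titled lv_nc (n = 2) are those they are set against, and the labels do not spell out nc. All 4 libraries carry the treatment label untreated, and the cells grew in medium with 10% fetal calf serum. The labels do not say whether a subline was 1 clone or whether replicates were separate cultures, so p-values reflect the scatter of these 4 libraries alone, and that scatter may be technical.

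Retinol is oxidised to retinal by the dehydrogenase encoded by Rdh10, and the reductase encoded by Dhrs3 runs that step backwards. The aldehyde dehydrogenases of the Aldh1a family then turn retinal into retinoic acid, which the binding protein encoded by Crabp2 carries to nuclear receptors such as the one encoded by Rarb. Cyp26b1 encodes a cytochrome P450 that breaks retinoic acid down. In many tissues retinoic acid raises Dhrs3, Rarb and Cyp26 genes, and in the developing kidney Aldh1a2 in the stroma is a known source of the signal.

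Depth was alike across libraries, with 15068898 and 15483756 recovered gene reads in lv_Mettl3 and 16133328 and 16622255 in lv_nc. The rat Mettl3 gene had normalized read counts of 757 and 700 in lv_Mettl3, against 719 and 767 in lv_nc, so these counts did not separate the groups. The lentivirus carries a murine cDNA, and the sources used here do not say whether its reads were counted for the rat gene. The level of the murine transcript is thus not known, and directions here belong to the libraries as labelled. Of 13 proximal tubule markers 8 were matched and 2, Ggt1 and Slc5a2, had a mean count of at least 20. Ggt1, a brush border peptidase gene, had 3294 and 3757 in lv_Mettl3 and 2412 and 2530 in lv_nc. The endocytic receptor gene Lrp2 was at 0 in both lv_Mettl3 libraries and at 1.95 and 0.923 in lv_nc, and the lineage factor gene Pax8 did not exceed 4.62 in any library, so the labelled cell type showed 1 abundant marker and several near 0. Of 5 matched epithelial markers, of 7 listed, Krt8 and Tjp1 were abundant in all 4 libraries, while Cdh1 did not exceed 8.79, Krt19 2.12 and Cldn1 1.85. Replicates differed by an SD of 0.29 (log2) in lv_Mettl3 and 0.41 in lv_nc over the 10051 genes whose mean reached 100, so the lv_nc libraries stood further apart.

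The members fell into 4 genes with more than 100 reads in at least 1 library (Rdh10, Dhrs3, Aldh1a2 and Cyp26b1) and 4 that stayed at 15 reads or fewer in every library (Crabp2, Aldh1a3, Aldh1a1 and Rarb). Among the first 4, Cyp26b1 was higher in lv_Mettl3, Dhrs3 and Aldh1a2 were lower, and Rdh10 was slightly higher. Of these 4, Dhrs3 had the largest log2 fold change and Rdh10 the smallest. The values by library follow the order of the pathway.

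**Figure D1:**
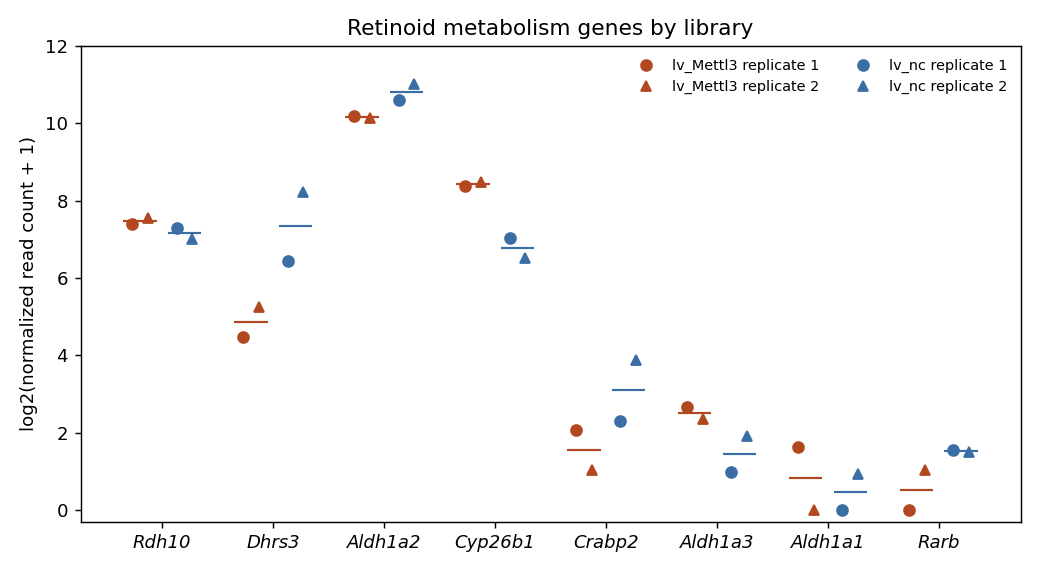
Each point is 1 library, plotted as log2(normalized read count + 1) on the vertical axis for the 8 members in the table, with lv_Mettl3 left of lv_nc and short lines for the group means of the plotted values. Dhrs3 spans 21.2 to 299 normalized counts over the 4 libraries, Aldh1a2 lies at 1118 or above in all of them, and the 4 genes on the right lie at 13.8 or below.

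Rdh10, the enzyme that makes retinal (ENSRNOG00000006681, chromosome 5, 2603505 to 2632030 in the authors' coordinates, for which the sources used here name no build), had normalized read counts of 168 and 185 in lv_Mettl3, against 156 and 127 in lv_nc. The groups did not overlap, as held for 45% of the 16391 genes tested (23.5% higher and 21.5% lower in lv_Mettl3), and the lower lv_Mettl3 library exceeded the higher lv_nc library by 1.07 times. The means were 176 ± 12.3 in lv_Mettl3 and 142 ± 20.5 in lv_nc (SD, n = 2 each), a log2 fold change of 0.32 (SE 0.20). Log2 fold changes are on log2(value + 1), a scale that makes changes of low genes look smaller, unless another pseudocount or the authors' table is named.

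Dhrs3, the retinal reductase (ENSRNOG00000015736, chromosome 5, 162808646 to 162843383), had 21.2 and 37.2 in lv_Mettl3, against 86.0 and 299 in lv_nc. Both lv_Mettl3 libraries lay below both lv_nc libraries, and lv_nc replicate 2 stood far above the other 3. The means were 29.2 ± 11.3 in lv_Mettl3 and 193 ± 151 in lv_nc, 6.59-fold lower in lv_Mettl3, with a log2 fold change of -2.47 (SE 0.66). The counts behind these values were 20 and 36 reads in lv_Mettl3 and 88 and 324 reads in lv_nc. Exact 95% Poisson intervals, which cover counting error only, were 70.6 to 108 reads for lv_nc replicate 1 and 290 to 361 reads for lv_nc replicate 2, so the spread between these replicates was larger than counting error. Of the 11022 genes whose mean reached 50, 0.499% had as large a log2 difference between the lv_nc libraries as Dhrs3 did, and 1.32% had as large a difference between the lv_Mettl3 libraries. Without lv_nc replicate 2 the log2 fold change was -1.58, and without lv_nc replicate 1 it was -3.37.

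Aldh1a2, which makes retinoic acid (ENSRNOG00000055049, chromosome 8, 77640222 to 77719489), was the most abundant member, with 1168 and 1118 in lv_Mettl3 against 1563 and 2073 in lv_nc. The lv_Mettl3 libraries were nearly equal, both lay below lv_nc, and lv_nc replicate 2 was again the highest. The means were 1143 ± 35.5 in lv_Mettl3 and 1818 ± 361 in lv_nc, 1.59-fold lower in lv_Mettl3, with a log2 fold change of -0.65 (SE 0.16). It was -0.86 without lv_nc replicate 1 and -0.45 without lv_nc replicate 2.

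Its paralogs were close to the counting floor. Aldh1a3 had 5 and 4 reads in lv_Mettl3 and 1 and 3 reads in lv_nc. Aldh1a1 had 2 and 0 reads in lv_Mettl3 and 0 and 1 reads in lv_nc, and it was the member in the table that did not pass the filter on low values, which asks for 1 or more in at least 2 libraries. At this depth a library with 0 reads allows up to 3, so no difference was readable for Aldh1a1, and Aldh1a2 carried nearly all reads of the family.

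Cyp26b1, which degrades retinoic acid (ENSRNOG00000015076, chromosome 4, 116261796 to 116278615), had 333 and 355 in lv_Mettl3, against 131 and 91.4 in lv_nc. It was the abundant member with the widest gap between groups, since the lower lv_Mettl3 library was 2.54 times the higher lv_nc library. The means were 344 ± 16.0 in lv_Mettl3 and 111 ± 27.9 in lv_nc, 3.10-fold higher in lv_Mettl3, with a log2 fold change of 1.64 (SE 0.23). Leaving out each library in turn gave 1.39 to 1.90.

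On the sensing side, Crabp2 had 3 and 1 reads in lv_Mettl3 and 4 and 15 reads in lv_nc. The difference came mostly from the 15 reads of lv_nc replicate 2, whose 95% interval of 8.40 to 24.7 reads overlaps that of lv_nc replicate 1 (1.09 to 10.2). Rarb, the receptor gene that retinoic acid is best known to induce, had 0 and 1 reads in lv_Mettl3 and 2 and 2 reads in lv_nc. Its log2 fold change ran from -2.57 with a pseudocount of 0.1 to -0.33 with a pseudocount of 5, so its size is set by the pseudocount. A level of Rarb above the counting floor was not detectable at this depth in any of the 4 libraries.

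**Figure D2:**
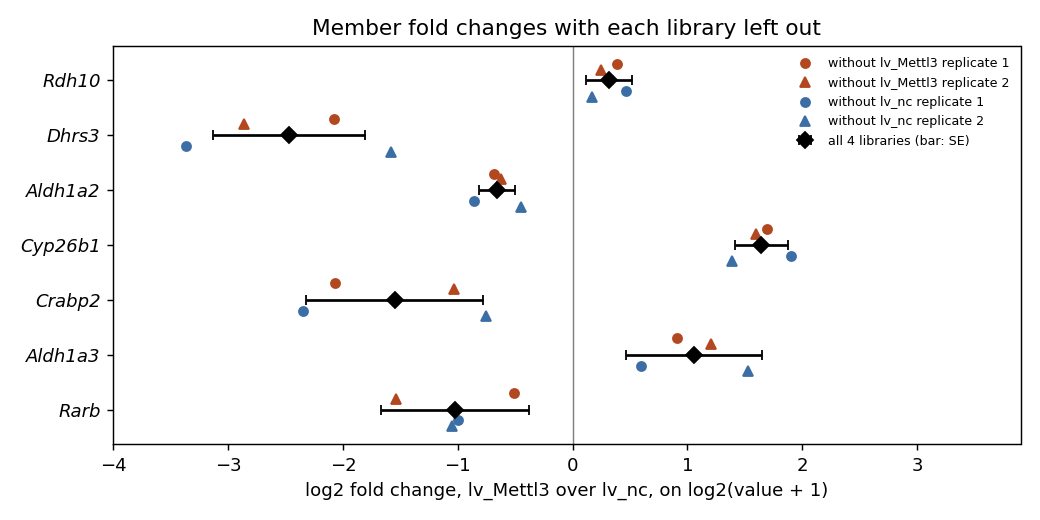
Diamonds give the log2 fold change of lv_Mettl3 over lv_nc on log2(value + 1) with all 4 libraries (bars, SE), and coloured points give it with 1 library left out, for the 7 members that passed the filter. Dhrs3 runs from -3.37 to -1.58 and Cyp26b1 from 1.39 to 1.90. For every member shown except Rarb both ends come from leaving out an lv_nc library.

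Among the 7 members that passed the filter the limma fit across all genes called 0, where it called 0.0183% of all genes tested. For the same 7 edgeR also called 0, with 0.0305% of all genes tested called. DESeq2 on the recovered reads called 3 of the 4 members that it gave an adjusted p (Dhrs3 and Aldh1a2 lower, Cyp26b1 higher), where it called 2.52% of 12601 genes (1.45% higher and 1.07% lower). In the authors' deposited table the same members have an adjusted p under 0.05. Their log2 fold changes there are -2.72 for Dhrs3, -0.67 for Aldh1a2 and 1.63 for Cyp26b1, the same as in this DESeq2 fit. Both rest on the same 4 libraries, so the deposited values are not a second source. Nothing is read from these counts, since this contrast was in view when the set was chosen. These calls belong to the fit of all 4 libraries, and whether they hold on fewer libraries is not reported here. With 1 library left out, a group holds 1 library and shows no spread of its own. For those fits only the log2 fold changes of the members are given, as above.

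To compare genes with each other, normalized counts were divided by the deposited gene length and are given as reads per kilobase. Aldh1a2 was highest, at 518 and 495 in lv_Mettl3 and 693 and 919 in lv_nc. In lv_Mettl3 it was followed by Cyp26b1 (73.2 and 78.1), Rdh10 (56.9 and 62.8) and Dhrs3 (10.2 and 17.9), with no overlap between neighbours. In lv_nc the next was Dhrs3 (41.4 and 144), whose range took in that of Rdh10 (53.1 and 43.2), and Cyp26b1 was lowest of the 4 (28.8 and 20.1). Cyp26b1 thus stood above Rdh10 and Dhrs3 in lv_Mettl3 and below both in lv_nc. The other 4 members did not exceed 17.3 reads per kilobase in any library.

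The per-kilobase level of the degrading enzyme relative to the synthesising one, Cyp26b1 over Aldh1a2, was 0.141 and 0.158 in lv_Mettl3, against 0.0415 and 0.0219 in lv_nc. That of the retinal reductase relative to the retinol oxidase, Dhrs3 over Rdh10, was 0.179 and 0.285 in lv_Mettl3, against 0.779 and 3.33 in lv_nc. Dhrs3 mRNA exceeded Rdh10 mRNA per kilobase in lv_nc replicate 2 and in no other library. These are ratios of mRNA levels, and enzyme amounts or retinoids were not measured.

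**Figure D3:**
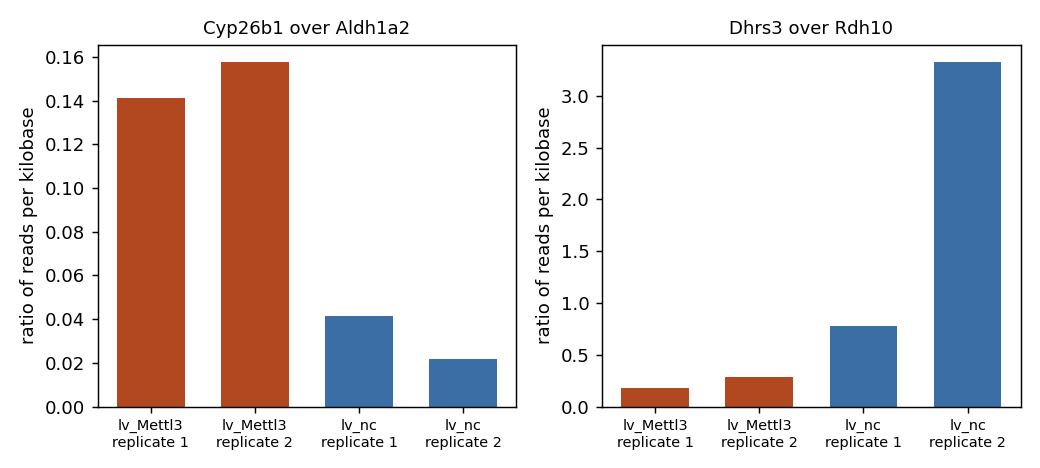
Bars give, for each of the 4 libraries, the ratio of reads per kilobase of Cyp26b1 to Aldh1a2 (left panel) and of Dhrs3 to Rdh10 (right panel), on linear axes from 0. The Cyp26b1 ratio is 0.141 and 0.158 in lv_Mettl3 and at most 0.0415 in lv_nc, and the Dhrs3 ratio is 3.33 in lv_nc replicate 2 and under 1 elsewhere.

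Because Rarb, Cyp26 genes and Dhrs3 are known to respond to retinoic acid, the letters of the retinoic acid response element were looked for in RefSeq promoter windows. These (build GRCr8, 250 bases before to 50 after the gene start) were found for 8 of the 9 symbols, with Stra6 and without Rdh10. The element is a repeat of a hexamer. The consensus hexamer AGGTCA was searched on both strands, the variant GGGTCA was searched alongside, the variant AGTTCA likewise, and the variant GGTTCA completed the set. Direct repeats of these hexamers spaced by 1, 2 or 5 bases are called DR1, DR2 and DR5, and overlapping matches were counted. Of 33469 promoter windows 44.4% held a hexamer, 0.233% a DR1, 0.170% a DR2 and 0.382% a DR5. Below, hexamers are in capitals and the gene's own strand is written from 5′ to 3′. The 4 windows shown are those of the 3 abundant members for which a window was found, and of Rarb, whose element is the textbook case. They lie at chr5:162031603-162031902 (Dhrs3, plus strand), chr8:80758391-80758690 (Aldh1a2, plus strand), chr4:118616127-118616426 (Cyp26b1, minus strand) and chr15:11336142-11336441 (Rarb, plus strand).
Dhrs3: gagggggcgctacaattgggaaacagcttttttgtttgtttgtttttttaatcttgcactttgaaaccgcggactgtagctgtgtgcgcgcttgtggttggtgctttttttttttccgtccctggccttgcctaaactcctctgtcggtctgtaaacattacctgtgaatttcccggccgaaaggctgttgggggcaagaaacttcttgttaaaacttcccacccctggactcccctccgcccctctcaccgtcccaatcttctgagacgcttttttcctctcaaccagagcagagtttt
Aldh1a2: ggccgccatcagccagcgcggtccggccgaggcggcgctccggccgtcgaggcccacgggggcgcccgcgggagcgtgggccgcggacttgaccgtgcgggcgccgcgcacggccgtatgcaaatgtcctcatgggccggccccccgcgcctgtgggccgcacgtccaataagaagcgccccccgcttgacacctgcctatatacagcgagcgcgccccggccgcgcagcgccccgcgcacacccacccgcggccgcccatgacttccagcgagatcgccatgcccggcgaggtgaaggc
Cyp26b1: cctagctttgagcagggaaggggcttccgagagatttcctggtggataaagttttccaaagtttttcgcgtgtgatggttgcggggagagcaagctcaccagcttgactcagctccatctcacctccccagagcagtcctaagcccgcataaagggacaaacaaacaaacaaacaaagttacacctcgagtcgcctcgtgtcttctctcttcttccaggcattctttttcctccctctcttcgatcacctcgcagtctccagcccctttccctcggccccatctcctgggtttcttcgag
Rarb: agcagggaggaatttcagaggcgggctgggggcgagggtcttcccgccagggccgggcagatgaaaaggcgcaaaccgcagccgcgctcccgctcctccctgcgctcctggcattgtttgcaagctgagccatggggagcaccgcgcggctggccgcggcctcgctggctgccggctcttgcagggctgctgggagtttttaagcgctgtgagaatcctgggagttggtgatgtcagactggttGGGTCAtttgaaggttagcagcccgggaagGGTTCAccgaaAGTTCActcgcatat

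The Rarb window held a DR5, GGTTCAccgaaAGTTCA, that begins 25 bases after the gene start, and a further lone hexamer. None of the windows of Dhrs3, Aldh1a2 and Cyp26b1 held a hexamer, which says only that these letters are not in those 300 bases. Hexamers were found in 3 of the 8 windows, those of Rarb, Aldh1a1 and Stra6, beside 44.4% of all windows. Rarb, the member with the element, had 0 to 2 reads, as did Aldh1a1, whose window held 1 hexamer and no direct repeat. Top2b, on the other strand, lies 52 bases beyond the end of Rarb in the authors' coordinates and had 3273 and 2790 normalized counts in lv_Mettl3 and 3257 and 3194 in lv_nc. Rpl7, on the other strand from Rdh10, lies 682 bases from it. It had 11261.9 and 11149.5 normalized counts in lv_Mettl3 and 12335.4 and 10511.1 in lv_nc. No member overlapped another gene of the table, and none had a copy there under the same description. The nearest gene to Dhrs3, Vps13d, which lies 48068 bases away, had 830 and 701 in lv_Mettl3 and 805 and 859 in lv_nc, with overlapping groups. The nearest gene to Cyp26b1, Exoc6b, which lies 36080 bases away, had 913 and 994 in lv_Mettl3 and 804 and 724 in lv_nc. It was higher without overlap, as held for 23.5% of all genes tested, and by less than Cyp26b1. On either side of Crabp2, Nes had 2.12 and 3.10 in lv_Mettl3 and 8.79 and 10.2 in lv_nc, and Isg20l2 had 633 and 648 in lv_Mettl3 and 528 and 490 in lv_nc.

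The genes most like Dhrs3 were taken by the smallest Euclidean distance between log2(value + 1) profiles over the 4 libraries, each centred on its own mean, among 10492 named genes with a mean of at least 20. They were the potassium channel gene Kcnh2 (distance 0.63), the NADPH oxidase gene Duox2 (0.64), Olfml2a (0.79), Upk3bl1 (0.83) and the collagen gene Col1a1 (0.86). All 5 were lowest in the lv_Mettl3 libraries and highest in lv_nc replicate 2, which follows from their selection by the profile of Dhrs3. Duox2 was at 15.9 and 36.2 in lv_Mettl3 and 122 and 315 in lv_nc. Olfml2a was at 392 and 399 in lv_Mettl3 and 914 and 2527 in lv_nc. Within the pathway Aldh1a2 ranked 431 by this distance, Rdh10 9065 and Cyp26b1 10421. Distances over 4 libraries are a description of these profiles.

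**Figure D4:**
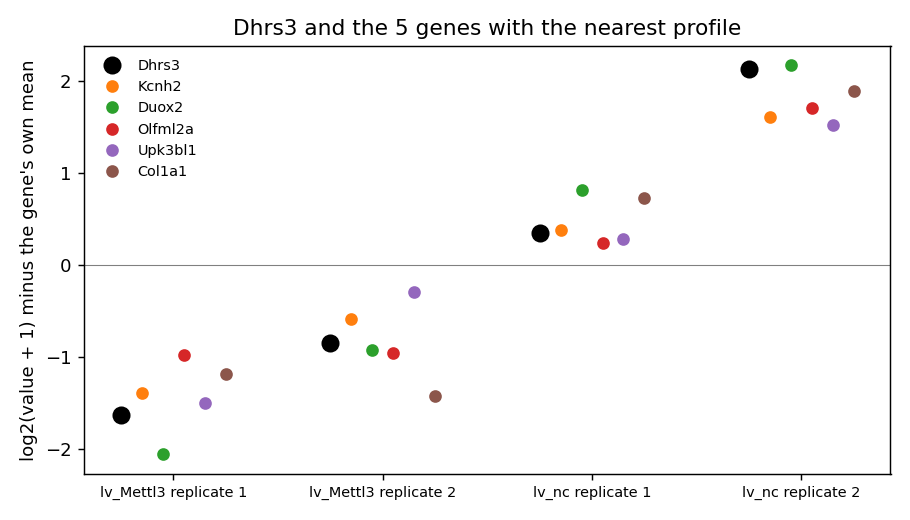
For Dhrs3 (large black points) and the 5 genes with the nearest profile, points give log2(value + 1) minus the gene's own mean on the vertical axis in each of the 4 libraries. All 6 genes lie below 0 in both lv_Mettl3 libraries and above 0 in both lv_nc libraries, highest in lv_nc replicate 2.

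Col1a1 is also a fibroblast marker, and of that list the collagen genes followed the order of Dhrs3 and Aldh1a2 over the groups. The summed normalized count of the 6 matched fibroblast and smooth muscle markers, of 9 listed, was 5150 and 4552 in lv_Mettl3, against 13425 and 17568 in lv_nc. Of these 6, 4 were lower in lv_Mettl3 without overlap (Col1a1, Col1a2, Col3a1 and Acta2), as held for 21.5% of all genes tested. Pdgfra was higher without overlap, as held for 23.5% of all genes tested. It had 1.06 and 3.10 in lv_Mettl3 against 0.977 and 0.923 in lv_nc, all within the counting floor. Tagln overlapped. The collagen genes carried the sum: Col1a1 had 1033 and 876 in lv_Mettl3 and 3914 and 8706 in lv_nc, and Col3a1 had 1386 and 1017 in lv_Mettl3 and 4115 and 6315 in lv_nc. Acta2 (542 and 488 in lv_Mettl3, 1531 and 748 in lv_nc) and Tagln (2160 and 2152 in lv_Mettl3, 3778 and 1663 in lv_nc) were highest in lv_nc replicate 1, whereas Dhrs3 and Aldh1a2 were highest in lv_nc replicate 2. None of the 6 was at 0 in every library. In bulk RNA fewer cells of a type and less RNA per cell cannot be told apart, and the part of these markers in the values of Dhrs3 and Aldh1a2 was not tested. Cyp26b1 and Rdh10 were lowest in lv_nc replicate 2, where the collagen genes were highest.

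The rest of the pathway was followed with 64 further genes listed by role, of which 42 were matched and 38 tested. None was called by limma, edgeR or DESeq2 (which gave 27 an adjusted p). At an unadjusted limma p under 0.05 there were 8, all lower, which is 21.1% of those tested beside 10.5% of all genes. The groups did not overlap for 4 higher and 12 lower genes, 42.1% beside 45% of all genes tested. The median log2 fold change was -0.13, beside 0.01 for all genes tested, and the limma adjusted p-values ran from 0.381 to 0.995.

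The nuclear receptors were the role in which every tested gene had the same sign, with log2 fold changes below 0 for 5 of 5, from -0.43 to -0.12. Of the 5, 4 stayed below 0 whichever library was left out. Over all roles 23 of 38 tested genes were below 0, and 16 of these 23 stayed so. The shares over all genes tested are not given here, and fits with 1 library left out share most of their libraries. Rarg, a retinoic acid receptor gene and the highest of them, had 1465 and 1573 in lv_Mettl3, against 1720 and 1940 in lv_nc. Rxrb, a retinoid X receptor gene, had 424 and 433 in lv_Mettl3, against 520 and 643 in lv_nc (log2 fold change -0.43, SE 0.15, limma adjusted p = 0.464). These 5 receptor genes had mean normalized counts of 364 or more, unlike Rarb, and none of their differences passed the test. Of 6 corepressors and coactivators 4 were below 0, and none passed the test.

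Of 8 tested genes known from other systems to respond to retinoic acid, 7 were below 0, and 6 of these 7 stayed so whichever library was left out. Here too the shares over all genes tested are not given. The 6 include Rarres1, named after its values were seen, whose normalized counts did not exceed 1.95 in any library. Only 5 genes of this role had a mean of at least 20. Of the members named above as responding to retinoic acid, Cyp26b1 was higher in lv_Mettl3 and Dhrs3 was lower. The homeobox gene Meis1 had 781 and 774 in lv_Mettl3, against 1047 and 1219 in lv_nc. The orphan receptor genes Nr2f1 and Nr2f2 had the same order, Nr2f1 at 353 and 336 in lv_Mettl3 against 502 and 530 in lv_nc, and Nr2f2 at 2082 and 2010 in lv_Mettl3 against 2611 and 2871 in lv_nc. Their log2 fold changes were -0.54 for Meis1 (SE 0.12), -0.58 for Nr2f1 (SE 0.12) and -0.42 for Nr2f2 (SE 0.09), with limma adjusted p-values of 0.385, 0.381 and 0.386. Without lv_nc replicate 1 the DESeq2 log2 fold changes were -0.652 for Meis1, -0.492 for Nr2f2 and -0.473 for Rara. The last is a retinoic acid receptor gene named after its values were seen. That fit holds 1 lv_nc library, so only these log2 fold changes are given.

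Genes of retinol handling lay on both sides of 0. Among oxidoreductases 8 of 11 were above 0, but when each library was left out in turn 6 of these 8 changed sign, and Rdh16 and Dhrs9 kept it. Dhrs9, a retinol dehydrogenase gene, had 941 and 1010 in lv_Mettl3, against 865 and 757 in lv_nc (log2 fold change 0.27, SE 0.12, limma adjusted p = 0.502). Rdh16, of the same enzyme class, had 91.2 and 93.0 in lv_Mettl3, against 80.1 and 48.0 in lv_nc. Retsat, the retinol saturase gene and the most abundant of this role, had 1134 and 1300 in lv_Mettl3 and 1095 and 1244 in lv_nc, which overlap. For uptake and storage, Dgat1, an acyltransferase gene, had 720 and 807 in lv_Mettl3 and 785 and 918 in lv_nc, and the scavenger receptor gene Scarb1 had 27.6 and 45.5 in lv_Mettl3 and 11.7 and 36.0 in lv_nc, both with overlapping groups. The oxidase gene Aox1 had 191 and 200 in lv_Mettl3, inside the range of 113 and 342 in lv_nc. The carotenoid oxygenase gene Bco2 stayed at or under 3.10 in every library, at the counting floor.

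**Figure D5:**
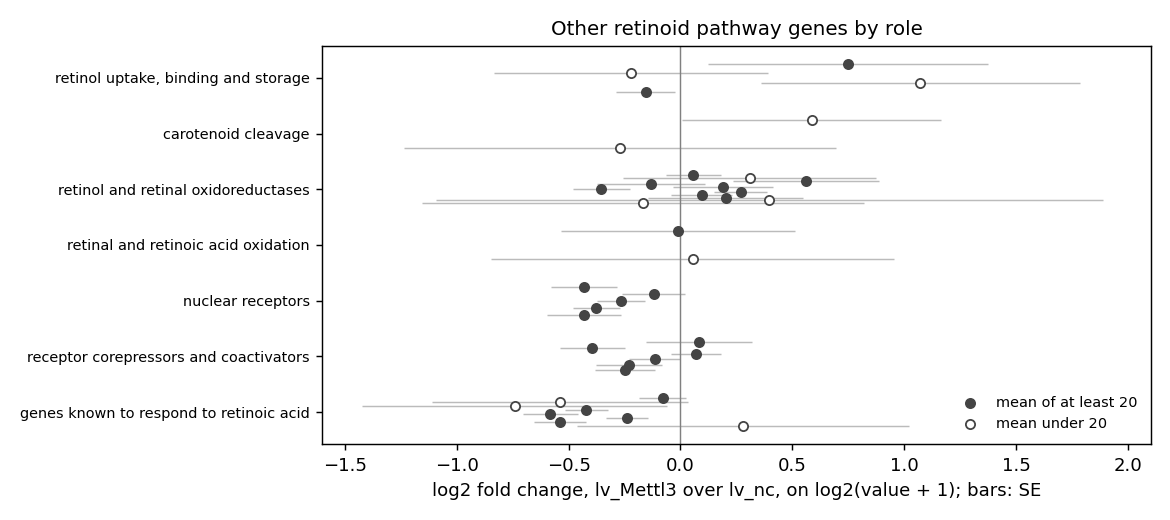
Points give the log2 fold change of lv_Mettl3 over lv_nc on log2(value + 1), with SE bars, for the 38 tested retinoid pathway genes outside the set, by role from top to bottom; open points have a mean normalized count under 20. All 5 nuclear receptor genes lie between -0.43 and -0.12, and 8 of 11 oxidoreductase genes lie above 0.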

How the data were processed

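RNA from 4 NRK-52E libraries was sequenced, and per the submitters' processing notes reads went through CASAVA 1.4 and HISAT2; the sources used here name no counter, genome build or strand setting. The deposited library columns hold a signal, gene read counts divided by 1 size factor per library: 100% of values were whole multiples of the smallest one within 0.001 reads, and whole reads were recovered so. The log2 fold changes, p-values and other values such as gene length (in bases) are the authors', per the file headers.

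The members, lists and tests were chosen with earlier results of these data known. Groups and replicate numbers came from the titles. The main test was limma 3.58.1, with an intensity trend, on log2(value + 1). It took in genes reaching 1 in 2 or more libraries, and p-values were adjusted by Benjamini-Hochberg with a threshold of 0.05. DESeq2 1.42.0 and edgeR 4.0.16 were run on recovered reads. Scripts were tested on simulated data. Named genes outside the set were those called, the most abundant of each role, and the 3 largest and 3 smallest log2 fold changes with a mean of at least 20; any other is marked in the text, and 1 gene picked this way is not reported here. Promoter sequences are RefSeq's (GRCr8). Alternatives changed pseudocount, filter, scaling, test, replicate block and libraries.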

Additional observations from a re-analysis of the deposited data

How the results depend on the processing

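Across the whole table limma called 3 genes, all higher in lv_Mettl3. It called 0 with a pseudocount of 0.1, 5 with at least 1 CPM in all libraries, 24 with robust empirical Bayes, and 0 whichever library was left out; edgeR called 5 and DESeq2 318. The cause of these differences was not tested. DESeq2 without 1 library, added after seeing the data, called 56 to 1547 genes, and of the other retinoid pathway genes 0 to 4, the 4 coming without lv_nc replicate 1. Limma called 0 of those pathway genes in each alternative run. Of 95 member values under alternatives 84 moved by less than 1 SE; the 11 that moved more came from leaving out an lv_nc library (Dhrs3, Aldh1a2, Crabp2 and Cyp26b1) or from the pseudocount and DESeq2 for Rarb. Without 1 library the log2 fold change changed sign for 18 of the 38 other pathway genes tested, 11 of 15 above 0 and 7 of 23 below 0. Among those named these were Aox1 (range -0.801 to 0.782), Retsat (-0.0413 to 0.155) and Scarb1 (-0.0223 to 1.52). Same-numbered libraries share only a number (deviations correlated at 0.33 over genes, with 2 pairs); with the replicate block limma called 3 genes, and 0 of the other pathway genes. Depth limits Crabp2, Aldh1a3, Aldh1a1 and Rarb.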
